A study of Mus musculus with 15 samples.

Results

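The RGS genes encode regulators of G protein signalling. The report covers 9 of them, Rgs1, Rgs2, Rgs3, Rgs10, Rgs11, Rgs14, Rgs16, Rgs18 and Rgs19, out of 21 genes named Rgs and a number in a deposited table of 49492 mouse genes. The 9 were picked by symbol, with their levels in the same libraries already seen. Every comparison below therefore describes members that these values helped to choose, and counts of calls over the members are no independent evidence. All 9 passed the filter on low counts; 19942 genes passed in all.

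RGS proteins shorten the signal of G protein-coupled receptors. A receptor that binds its ligand loads the G alpha subunit with GTP, and the RGS domain speeds the hydrolysis of that GTP, which returns the G protein to rest. In lymphocytes this brake acts on chemokine and lipid receptors that steer migration into, within and out of lymph nodes. Most members of the R4 family are small proteins that consist of little more than the RGS domain. R7 proteins need the G protein subunit beta 5, encoded by Gnb5, as a partner, and some R12 proteins carry further domains that bind Ras proteins and inactive G alpha.

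RNA was sequenced from CD4 T cells of CD45.1 x OT-II mice, whose transgenic T cell receptor recognises a peptide of ovalbumin. Naive cells, CD44 low and CD62L+, were taken by sorting from spleen and superficial lymph nodes of mice left untreated, and were not transferred. The 4 primed groups were such cells after transfer into C57BL/6 wild-type (WT) or Batf3-/- recipients carrying CD45.2. Batf3 is a transcription factor that type 1 conventional dendritic cells need, and only the recipients lacked it, not the sequenced cells. From 24 hours after transfer, recipients received 60 µg ovalbumin with 30 µg papain, a protease that acts as a type 2 adjuvant, through the nose in 3 doses 6 to 8 hours apart. On day 5, CD44 high donor cells were sorted from mediastinal lymph nodes as CD62L- or CD62L+. The comparisons are priming (each primed group against naive cells), subset (CD62L- against CD62L+) and recipient (Batf3-/- against WT). Primed cells also differed from naive cells in transfer, organ and CD44 sort, and these cannot be told apart from priming. The age of the mice is not given in the labels. The study calls the replicates independent, but no label ties a library to an animal, so p-values measure the spread between libraries.

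Each of the 5 groups had 3 libraries, with totals of 38082967 to 99380475 counts and 19260 to 21331 genes with counts. The shallowest library was replicate 3 of WT CD62L-. Cd44 averaged 24.2 CPM (counts per 1000000 scaled library counts) in naive and 153 to 256 CPM in primed groups, and 6 CD4 T cell markers summed to 12256 to 17582 CPM per group. Libraries with replicate number 1 had 3.82 to 5.19% of counts in 3 ribosomal RNA genes, against 8.12 to 16.4% in the others.

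The members fall into 4 families by textbook classification. Rgs1, Rgs2, Rgs3, Rgs16 and Rgs18 belong to R4, Rgs10 and Rgs14 to R12, Rgs11 to R7 and Rgs19 to RZ. On the build mm10, 4 members lie on chromosome 1. Rgs2 (143999338-144004161), Rgs1 (144242296-144249242) and Rgs18 (144752683-144775435), all on the minus strand, share a stretch of 776 kb with Rgs13 and Rgs21. Rgs16 (153740349-153745468, plus strand) lies 40025 bases beyond the end of Rgs8. The others are Rgs3 (chromosome 4, 62559847-62704001, plus), Rgs10 (chromosome 7, 128373621-128418758, minus), Rgs11 (chromosome 17, 26202951-26211324, plus), Rgs14 (chromosome 13, 55369732-55384687, plus) and Rgs19 (chromosome 2, 181688419-181693977, minus). All 9 are protein coding in GENCODE M21.

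The table counts Rgs1 as 1 exon block of 6947 bases, which spans its whole locus, so reads of its introns enter its count. Rgs16 shares 236 exon bases, 10.1% of its exon length, with Gm28513 on the other strand, and Rgs11 shares 138 bases, 3.28%, with Arhgdig. Gm11209 and Gm15503 lie inside Rgs3 and Rgs10 and share no exon bases with them.

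RefSeq promoter entries of the build GRCm38.p6 (250 bases before to 50 after a start) were at hand for 5 members. Those of Rgs16, Rgs10 and Rgs2 are shown because these members differed between naive and primed cells in different ways. Rgs16 was near 0 in naive and high in primed cells. In primed cells Rgs10 was higher by a like amount in every library, and Rgs2 was higher in mean with a wide spread between libraries. Capitals mark GGGCGG, the GC box, on either strand (CCGCCC where it lies on the other strand).
Rgs16, chr1:153740103-153740402, plus strand: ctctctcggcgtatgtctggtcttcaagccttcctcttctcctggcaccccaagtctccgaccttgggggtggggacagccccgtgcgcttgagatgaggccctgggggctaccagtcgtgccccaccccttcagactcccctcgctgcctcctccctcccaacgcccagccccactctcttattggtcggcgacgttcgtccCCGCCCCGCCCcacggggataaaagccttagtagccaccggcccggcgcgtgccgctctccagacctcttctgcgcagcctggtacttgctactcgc
Rgs10, chr7:128418123-128418422, minus strand: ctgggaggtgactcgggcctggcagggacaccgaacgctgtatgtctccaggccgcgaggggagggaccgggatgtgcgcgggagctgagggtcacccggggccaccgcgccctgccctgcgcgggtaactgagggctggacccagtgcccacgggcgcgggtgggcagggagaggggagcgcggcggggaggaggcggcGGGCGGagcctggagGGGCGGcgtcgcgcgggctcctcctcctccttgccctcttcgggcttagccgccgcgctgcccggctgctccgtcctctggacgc
Rgs2, chr1:144004100-144004399, minus strand: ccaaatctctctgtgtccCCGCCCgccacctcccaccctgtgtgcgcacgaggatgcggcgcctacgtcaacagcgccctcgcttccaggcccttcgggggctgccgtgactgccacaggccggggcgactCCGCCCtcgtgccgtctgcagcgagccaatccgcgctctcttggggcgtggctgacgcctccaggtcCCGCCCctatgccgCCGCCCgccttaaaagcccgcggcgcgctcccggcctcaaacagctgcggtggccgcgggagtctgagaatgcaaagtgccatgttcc
The start used for Rgs10 lies 586 bases inside the outer end of the gene in the table. Rgs16 and Rgs10 hold 2 GC boxes each and Rgs2 holds 4, and 35.9% of 32544 promoter windows of this length hold at least 1. TATAAA (13.6% of all windows), TGACGTCA (1.8%), TGANTCA (7.79%), CACGTG (7.17%) and GGAAA (61.5%), searched on both strands, were not found in these 3 windows. Among the entries not shown, TATAAA was found for Rgs3, CACGTG for Rgs19 and GGAAA for both. The letters alone say nothing about which factors bind in any of these windows.

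Priming went with higher levels of Rgs1, Rgs3, Rgs10 and Rgs16 in all 4 primed groups and with lower levels of Rgs11 and Rgs14 in all 4. Rgs2 rose in both WT groups, Rgs19 fell in both CD62L- groups, and Rgs18 was at or near 0 throughout. By edgeR's quasi-likelihood test, adjusted over all genes, WT CD62L- cells had 5 members higher and 3 lower than naive cells, where 30.1% of all genes tested were called, 16.9% higher and 13.2% lower. WT CD62L+ cells had 5 higher and 2 lower, where 27.2% of all genes were called, 15.8% higher and 11.4% lower. Batf3-/- CD62L- cells had 4 higher and 3 lower, where 29.3% of all genes were called, 16.5% higher and 12.8% lower. Batf3-/- CD62L+ cells had 4 higher and 2 lower, where 30.2% of all genes were called, 16.9% higher and 13.3% lower. The libraries of primed and naive cells did not overlap for 8, 8, 7 and 8 members in that order, and for 45.2%, 46.3%, 45.2% and 49.4% of all genes. These comparisons share the naive libraries and the members were chosen with them in view, so nothing is read from the members' counts against those shares. The summed level of the 9 members averaged 594 ± 41.2 CPM (SD, n = 3) in naive cells and 1443 ± 177, 1484 ± 145, 1203 ± 141 and 1258 ± 177 CPM in WT CD62L-, WT CD62L+, Batf3-/- CD62L- and Batf3-/- CD62L+ cells. In bulk RNA, a change in the share of cells that express a gene and a change in RNA per cell cannot be told apart.

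**Figure D1:**
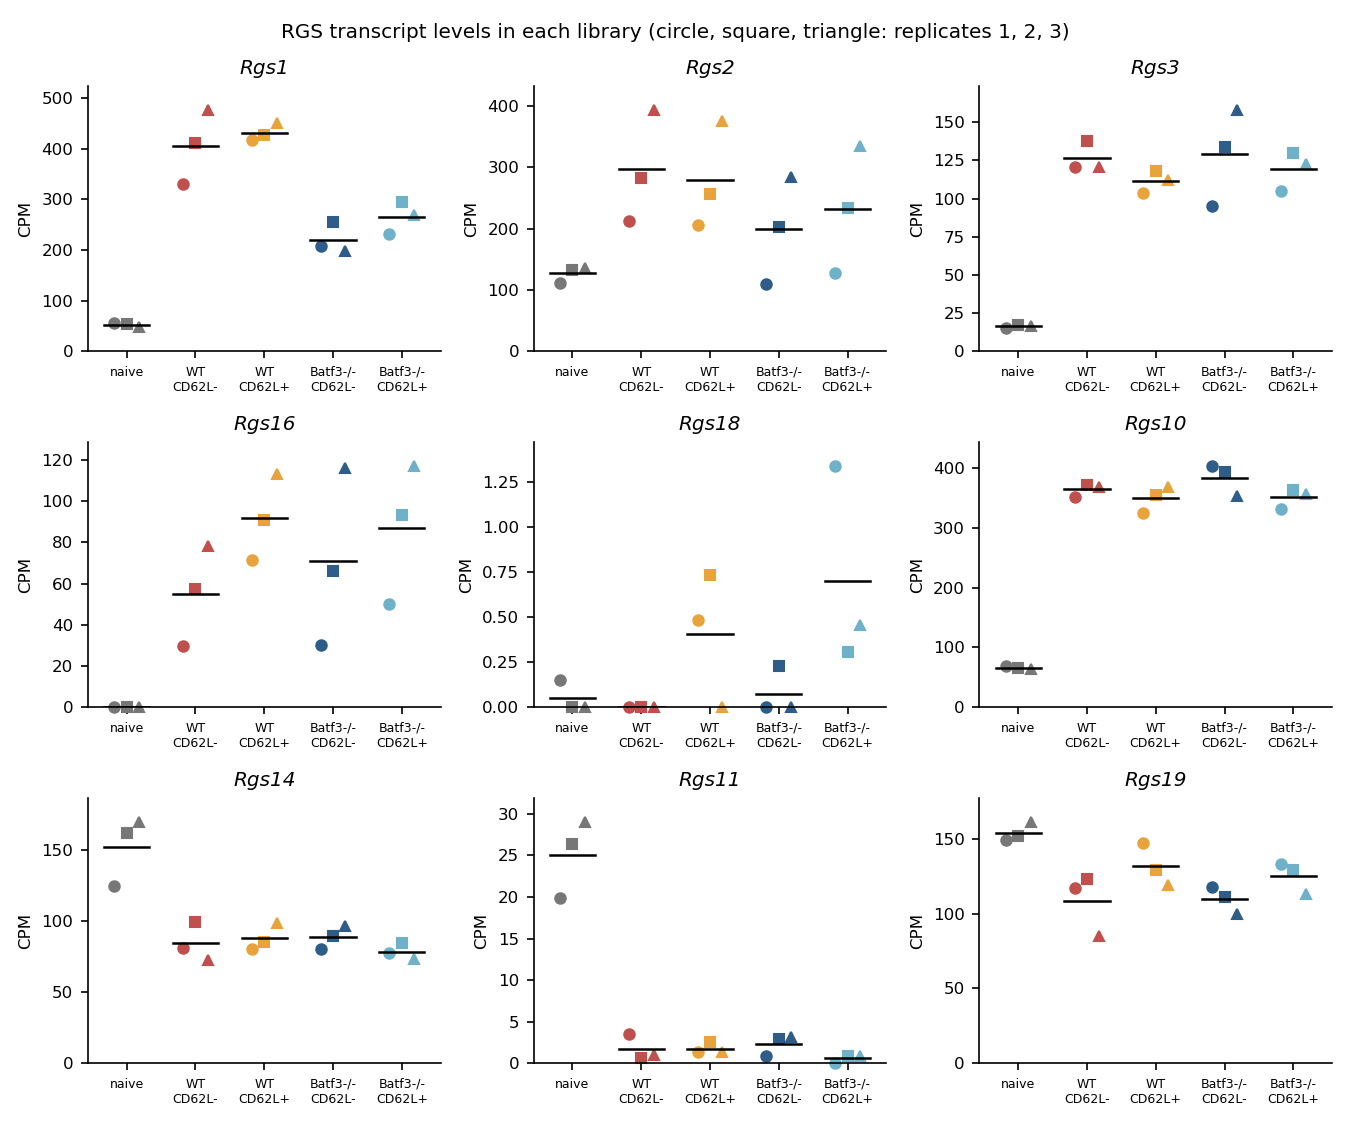
Levels of the 9 members in CPM (y axis, linear from 0, a scale per panel) in each library of the 5 groups (x axis). Circles, squares and triangles are replicates 1, 2 and 3 and black lines are group means. Rgs1 lies highest in both WT groups, and the triangles of Rgs2 and Rgs16 lie above the circles in each primed group.

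Among the R4 members, Rgs16 had the largest fold. RGS16 restrains chemokine responses of lymphocytes. The naive libraries held 13, 2 and 8 counts of Rgs16, or 0.124, 0.0246 and 0.0984 CPM. It reached 29.9, 57.2 and 78.4 CPM in WT CD62L-, 71.3, 91.1 and 113 CPM in WT CD62L+, 30.3, 66.3 and 116 CPM in Batf3-/- CD62L-, and 50.3, 93.4 and 117 CPM in Batf3-/- CD62L+ libraries. No primed library came near the naive ones, and the 4 primed groups overlapped each other. The log2 fold changes over naive cells were 9.31, 10.04, 9.67 and 9.96 in the same order, with standard errors of 0.72 to 0.73 and adjusted p-values (edgeR) of 1.31e-07 to 2.11e-07. The antisense gene Gm28513 averaged 0.0897 CPM in naive and 8.97 to 14.1 CPM in primed groups, and reads over the shared bases cannot be assigned to either gene.

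Rgs1, which dampens chemokine receptor signals and is known from activated lymphocytes, stood at 56.7, 53.3 and 47.5 CPM in naive libraries. It rose to 330, 412 and 476 CPM in WT CD62L- and to 417, 426 and 451 CPM in WT CD62L+ libraries. Batf3-/- recipients gave 208, 255 and 198 CPM in CD62L- and 231, 295 and 269 CPM in CD62L+ cells. All primed libraries lay above the naive ones, and each WT library lay above each Batf3-/- library. Against naive cells the log2 fold changes were 2.95 (SE 0.15), 3.04 (0.15), 2.07 (0.14) and 2.34 (0.14), with adjusted p-values (edgeR) of 2.16e-09 to 7.5e-08.

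Rgs3, an R4 member with long and short forms, ranged from 15.1 to 17.4 CPM in naive libraries and from 95.1 to 158 CPM over all primed ones. Its log2 fold changes were 2.95, 2.76, 2.97 and 2.86 (SE 0.16 each), with adjusted p-values (edgeR) of 6.26e-09 to 1.4e-08. The counts are per gene, so its forms are not told apart.

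Rgs2, which acts mainly on G alpha q, had 112, 133 and 136 CPM in naive libraries. WT CD62L- libraries had 213, 283 and 393 CPM and WT CD62L+ libraries 206, 256 and 375 CPM, all above the naive range. Batf3-/- CD62L- libraries had 109, 203 and 284 CPM and Batf3-/- CD62L+ libraries 127, 233 and 335 CPM, and both groups overlapped the naive one. The log2 fold change was 1.22 (SE 0.37, adjusted p = 0.0219, edgeR) in WT CD62L- and 1.14 (SE 0.37, adjusted p = 0.0341) in WT CD62L+ cells. It was 0.65 (interval -0.14 to 1.43, adjusted p = 0.211) and 0.87 (interval 0.08 to 1.65, adjusted p = 0.091) in CD62L- and CD62L+ cells of Batf3-/- recipients. The WT calls of Rgs2 depended on the libraries kept. Both were lost without any 1 of the naive libraries, at log2 fold changes of 1.05 to 1.27, and without replicate 3 of the primed group, at 0.97 and 0.86, with adjusted p-values from 0.0528 to 0.148. That in CD62L+ cells was also lost without replicate 2 (0.0585) and with no filter on low counts (0.0680), and that in CD62L- cells without replicate 3 of both CD62L- groups (0.0718). In Batf3-/- recipients Rgs2 was called in 1 of 13 alternatives for CD62L- cells and in 3 of 13 for CD62L+ cells, among the latter DESeq2 (adjusted p = 0.0462) and edgeR without replicate 1 (0.0242).

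Rgs2 and Rgs16 shared a further feature. In each of the 4 primed groups, the library titled as replicate 3 was highest and that titled as replicate 1 was lowest, for both genes. The ratio of the highest to the lowest library within a group was 1.82 to 2.65 for Rgs2 and 1.58 to 3.85 for Rgs16, against 1.06 to 1.14 for Rgs10. This order was found for 263 of the 19942 genes tested (1.32%), and the reverse order for 305 (1.53%), none of them a member. Rgs19 was lowest in replicate 3 in all 4 primed groups. The number 1 libraries were also those with the lowest share of ribosomal RNA counts in each group, and its part in these values was not tested.

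Rgs18, known from platelets and megakaryocytes, was barely detected. It had 16, 0 and 0 counts in naive libraries, 0 in each WT CD62L- library, 44, 70 and 0 in WT CD62L+, 0, 18 and 0 in Batf3-/- CD62L-, and 100, 24 and 36 in Batf3-/- CD62L+ libraries. The highest level was 1.34 CPM, and no comparison called it. The floor of 3 counts over the WT CD62L- group is 0.0183 CPM. Its group totals were highest in both CD62L+ groups, where 10 B cell markers had summed levels of 116 to 160 CPM (Batf3-/-) and 114 to 139 CPM (WT), against 13.4 to 43.8 CPM in the other groups. Within WT CD62L+ cells, the library with the highest sum (139 CPM) had 0 Rgs18 counts. Within Batf3-/- CD62L+ cells, that with the lowest sum (116 CPM) had the most, 100. In Batf3-/- CD62L- cells, the library with 18 counts had the highest sum of its group (41.3 CPM). The megakaryocyte and platelet markers summed to at most 3.11 CPM in any library, with Treml1 at 0 in every one, and the part of other cells in the Rgs18 counts was not tested.

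In the R12 family Rgs10 and Rgs14 moved in opposite directions. Rgs10 is a short RGS protein abundant in immune cells, and Rgs14 adds domains that bind Ras proteins and G alpha. Rgs10 had 69.6, 65.9 and 63.9 CPM in naive libraries. It had 352, 372 and 368 CPM in WT CD62L-, 324, 355 and 368 CPM in WT CD62L+, 403, 394 and 353 CPM in Batf3-/- CD62L-, and 332, 363 and 357 CPM in Batf3-/- CD62L+ libraries. The primed groups overlapped each other and lay far above the naive one. Log2 fold changes were 2.45, 2.39, 2.53 and 2.40 (SE 0.08 each), with adjusted p-values (edgeR) of 3.14e-11 to 5.62e-11. By p-value Rgs10 ranked between 18 and 23 among the 19942 genes in the 4 comparisons. The gene model Gm15503 inside it averaged 3.15 CPM in naive cells and 5.11 to 7.18 CPM in primed groups. EdgeR called it higher in every primed group but WT CD62L-.

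Rgs14 ranged from 125 to 170 CPM in naive and from 72.8 to 99.7 CPM in primed libraries, with no overlap. It fell in all 4, with log2 differences of -0.85, -0.79, -0.77 and -0.95 (SE 0.14 each) and adjusted p-values (edgeR) of 0.000138 to 0.000794. Rgs12, the other R12 gene, is not among the 9 but fell as well, from 12.6 ± 1.87 CPM in naive cells to group means of 2.22 to 2.98 CPM. Its adjusted p-values were 0.0144 to 0.0342.

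Rgs11, the R7 member, was the most reduced. Naive libraries had 19.9, 26.4 and 29.0 CPM. WT CD62L- libraries had 3.53, 0.597 and 1.06 CPM, WT CD62L+ 1.33, 2.58 and 1.38 CPM, Batf3-/- CD62L- 0.834, 2.93 and 3.22 CPM, and Batf3-/- CD62L+ 0.0268, 0.928 and 0.915 CPM. All primed libraries lay below all naive ones. It fell in all 4, with log2 differences of -3.84 (SE 0.86), -3.82 (0.85), -3.43 (0.84) and -5.32 (0.92) and adjusted p-values (edgeR) of 0.000514 to 0.00638. Its partner gene Gnb5 averaged 1.65 CPM in naive cells and rose in WT CD62L-, WT CD62L+ and Batf3-/- CD62L- cells, to 6.21, 5.92 and 5.19 CPM; it averaged 3.06 CPM in Batf3-/- CD62L+ cells, where it was not called. The overlapping Arhgdig fell too, from 2.47 CPM to at most 0.275 CPM in group means. The 6 erythroid markers, mainly globins, were also lower in sum in primed than in naive cells. They summed to 573 to 678 CPM in naive and to 9.4 to 101 CPM in primed libraries. Within each CD62L+ group, the libraries had the same order by this sum and by Rgs11. Within WT CD62L- cells the order was reversed. In Batf3-/- CD62L- cells, the library with the lowest sum (9.4 CPM) had 2.93 CPM of Rgs11. The part of erythroid RNA in the Rgs11 difference was not tested.

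Rgs19, of the RZ family, had the smallest log2 differences from naive cells among the 8 detected members in each of the 4 comparisons. Naive libraries ran from 149 to 161 CPM, WT CD62L- from 85.1 to 123, Batf3-/- CD62L- from 100 to 118, WT CD62L+ from 119 to 147 and Batf3-/- CD62L+ from 113 to 133 CPM. No primed library reached the naive range. It fell in WT CD62L- (log2 -0.51, SE 0.13, adjusted p = 0.00871, edgeR) and in Batf3-/- CD62L- cells (-0.49, SE 0.13, adjusted p = 0.011). In CD62L+ cells the log2 difference was -0.23 (interval -0.51 to 0.05, adjusted p = 0.227) for WT and -0.30 (interval -0.58 to -0.02, adjusted p = 0.0955) for Batf3-/- recipients. The latter passed the threshold in 3 of 13 alternatives, among them when only those groups were fitted (0.0479) and without replicate 3 of both CD62L- groups (0.0443).

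**Figure D2:**
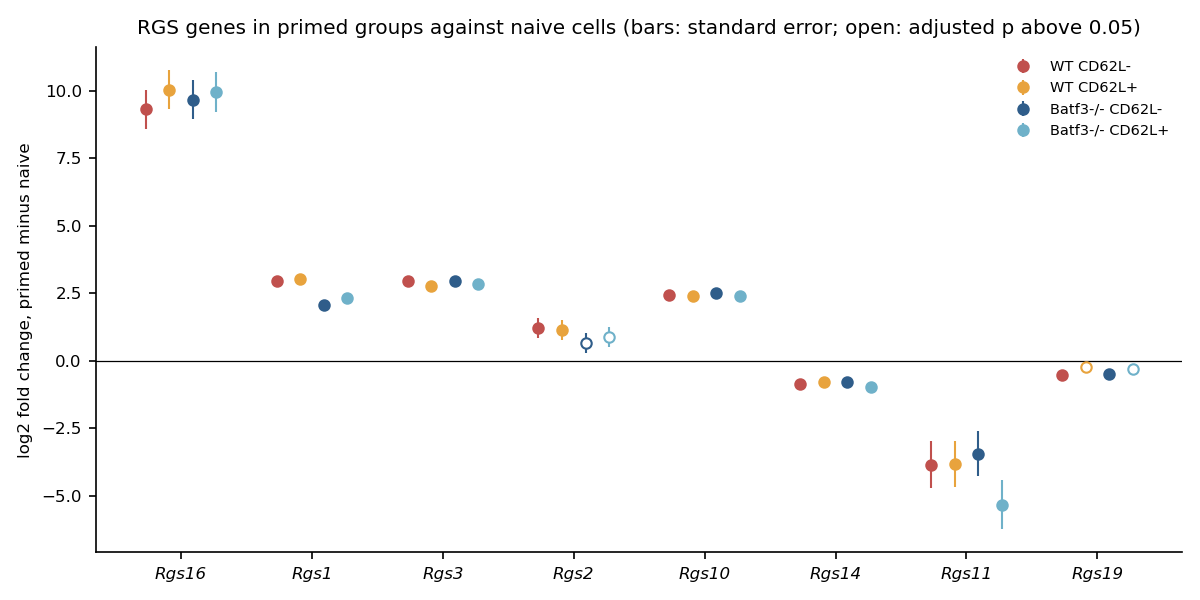
Log2 fold change of 8 members (x axis) in each primed group against naive cells (y axis), with bars for 1 standard error and open circles where the adjusted p was above 0.05. Rgs18 is left out because it was barely detected, with no counts in the WT CD62L- group. Rgs16 stands at 9.31 to 10.04, Rgs11 at -5.32 to -3.43, and the open circles are those of Rgs2 in Batf3-/- recipients and of Rgs19 in CD62L+ cells.

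Per exon length, the order of the members differed between naive and primed cells. In naive cells Rgs19 (69.1 ± 2.87 CPM per kb) and Rgs14 (61.1 ± 9.74) led, with overlapping libraries, followed by Rgs10 (38.8 ± 1.69) and Rgs2 (35.0 ± 3.60), which overlapped as well. Rgs1 (7.56), Rgs11 (5.97) and Rgs3 (1.52) came next, and Rgs16 (0.0352) was near the floor. In the primed groups Rgs10 led at 204 to 224 CPM per kb, and the next in mean was Rgs2 at 54.8 to 81.7. Rgs1 stood at 58.5 and 62.1 CPM per kb in CD62L- and CD62L+ cells of WT recipients and at 31.7 and 38.2 in those of Batf3-/- recipients. The Rgs1 values divide by the length of the whole locus, and a level over its spliced exons was not computed. In both WT groups the libraries of Rgs2 overlapped those of Rgs1, and those of Rgs1 overlapped those of Rgs19, so the order of these neighbours is not resolved. In Batf3-/- recipients Rgs2 and Rgs19 overlapped in the same way.

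**Figure D3:**
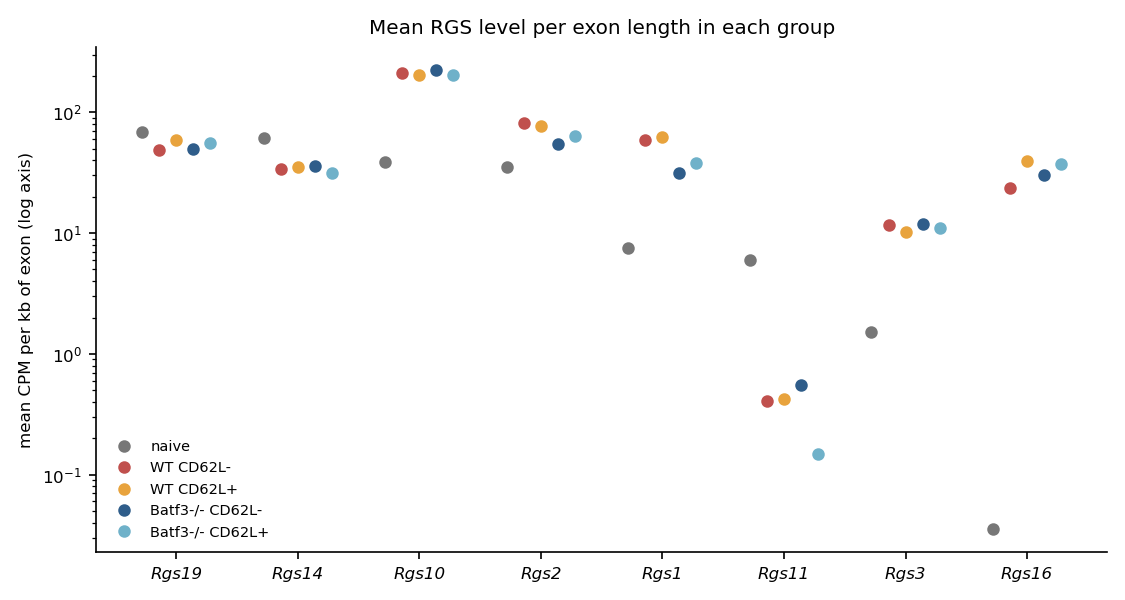
Mean level per kb of exon (y axis, log axis) of 8 members (x axis) in the 5 groups. Rgs10 moves from 38.8 CPM per kb in naive cells to 204 to 224 in primed groups, above all other members, and Rgs16 moves from 0.0352 to 23.6 to 39.2.

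Among the 12 other RGS genes, 4 passed the filter, and Rgs12 was the only one called against naive cells by edgeR, where DESeq2 called 2, 2, 1 and 2 of the 4 in the same order of groups and 35.5%, 32.4%, 34.6% and 36% of all genes. Rgs9 reached at most 0.861 CPM, Rgs8 at most 1.29 CPM (counts in 5 of 15 libraries) and Rgs13 at most 0.666 CPM (4 libraries). Rgs4, Rgs7, Rgs21 and Rgs22 had no counts. Rgs5 had 106 counts and Rgs17 had 36, each in 1 library, and Rgs6 and Rgs20 had 14 and 25 counts in 2 libraries each. Rgs13 and Rgs21, which lie between Rgs2 and Rgs18 on chromosome 1, were thus near or at 0, while Rgs1 and Rgs2 in the same stretch had counts in all 15 libraries.

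Within the primed groups, the subset made no called difference to any member. In WT recipients 0 of 9 members were called between CD62L- and CD62L+ cells by edgeR and 0 by DESeq2, where edgeR called 1.22% of all genes. At an unadjusted p under 0.05 there were 2, Rgs18 and Rgs19, where 12.3% of all genes were (4.13% called by DESeq2). In Batf3-/- recipients 0 were called by either tool (0.501% of all genes), with 1, Rgs11, at an unadjusted p under 0.05, where 8.12% of all genes were (2.17% called by DESeq2). Intervals were narrow for Rgs10, with a CD62L- to CD62L+ ratio of 1.04 (0.928 to 1.17) in WT and 1.09 (0.973 to 1.23) in Batf3-/- recipients. For Rgs1 the ratios were 0.941 (0.768 to 1.15) and 0.830 (0.677 to 1.02), and for Rgs3 1.14 (0.913 to 1.42) and 1.08 (0.866 to 1.35). Those of Rgs16 were 0.601 (0.310 to 1.16) and 0.818 (0.424 to 1.58). For Rgs2 they were 1.06 (0.618 to 1.83) and 0.858 (0.499 to 1.48).

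The recipient comparison asks whether T cells primed in Batf3-/- recipients differ from those primed in WT recipients. Dendritic cells of the recipients were not measured here. Rgs1 was lower in cells from Batf3-/- recipients, and no other member was called. In CD62L- cells the mean was 220 ± 30.9 CPM in Batf3-/- against 406 ± 73.2 CPM in WT recipients (SD, n = 3), a log2 difference of -0.88 (SE 0.14, adjusted p = 0.0331, edgeR), or 1.84-fold. The test called 10 genes in all there, 0.0501% of those tested, 0.0251% lower. The libraries did not overlap for 1 member, Rgs1, and for 14.1% of all genes. In CD62L+ cells the means were 265 ± 32.5 and 431 ± 17.7 CPM, a log2 difference of -0.70 (SE 0.14), or 1.63-fold, with an interval of -1.0 to -0.41. The libraries did not overlap for 2 members, Rgs1 and Rgs11, and for 13.1% of all genes. Its adjusted p was 0.146, so 0 members were called by edgeR, against 1 at an unadjusted p under 0.05 and 1 by DESeq2, in each case Rgs1. Of all genes tested, 0.00501% were called by edgeR, 5.78% had an unadjusted p under 0.05 and 0.712% were called by DESeq2. Averaged over both subsets, Rgs1 was 1.73-fold lower (log2 -0.79, SE 0.10, adjusted p = 0.00454), one of 88 genes called (0.441%, and 0.17% lower). By p-value it ranked 5 of 19942 there. No label says whether CD62L- and CD62L+ libraries came from the same recipients, and the fit treats them as independent. Whether the recipient difference itself depended on the subset was tested as an interaction. It was -0.18 for Rgs1 (interval -0.60 to 0.23, adjusted p = 1), and edgeR called 0 members (0% of all genes), as did DESeq2, with 0 members at an unadjusted p under 0.05. Of all genes, 4.31% had such a p and DESeq2 called 0.181%.

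The averaged Rgs1 difference passed the threshold in all 19 alternatives run, with log2 values from -0.86 to -0.69 and adjusted p-values from 3.86e-11 to 0.0234. The CD62L- difference alone was less firm. Its call was lost when only those 2 groups were fitted (adjusted p = 0.439), without replicate 3 of both groups (0.277), without WT replicate 2 or 3 (0.115 and 0.130), and without Batf3-/- replicate 1, 2 or 3 (0.0945, 0.0518 and 0.108). Over 13 alternatives its adjusted p ran from 1.24e-06 to 0.439 and its log2 value from -1.04 to -0.69.

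Depth and other cells were compared between these groups. WT CD62L- libraries had 38082967 to 64938211 counts and Batf3-/- CD62L- libraries 77620291 to 89129489, so depth separated these groups. In CD62L+ cells the totals overlapped, at 61645012 to 99380475 and 70712711 to 80826885. B cells also express Rgs1, and the B cell markers summed to 13.4 to 17.4 CPM in WT CD62L- and 28.3 to 41.3 CPM in Batf3-/- CD62L- libraries. In CD62L+ cells these sums overlapped, at 114 to 139 and 116 to 160 CPM. The part of depth and of B cell RNA in the Rgs1 difference was not tested.

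No other member was called between recipients, and their intervals differed in width. The ratio of Batf3-/- to WT averaged over subsets was 1.03 (0.948 to 1.12) for Rgs10, 1.05 (0.894 to 1.22) for Rgs3, 0.969 (0.836 to 1.12) for Rgs14 and 0.980 (0.855 to 1.12) for Rgs19. It was 0.746 (0.508 to 1.09) for Rgs2, 1.1 (0.694 to 1.76) for Rgs16 and 0.686 (0.297 to 1.58) for Rgs11. A p above the threshold does not show that these were alike, and the last 3 intervals take in differences as large as that of Rgs1 in at least 1 direction. Rgs11 libraries of CD62L+ cells did not overlap (1.33 to 2.58 against 0.0268 to 0.928 CPM), with a log2 difference of -1.5 (interval -3.25 to 0.25, adjusted p = 0.921).

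**Figure D4:**
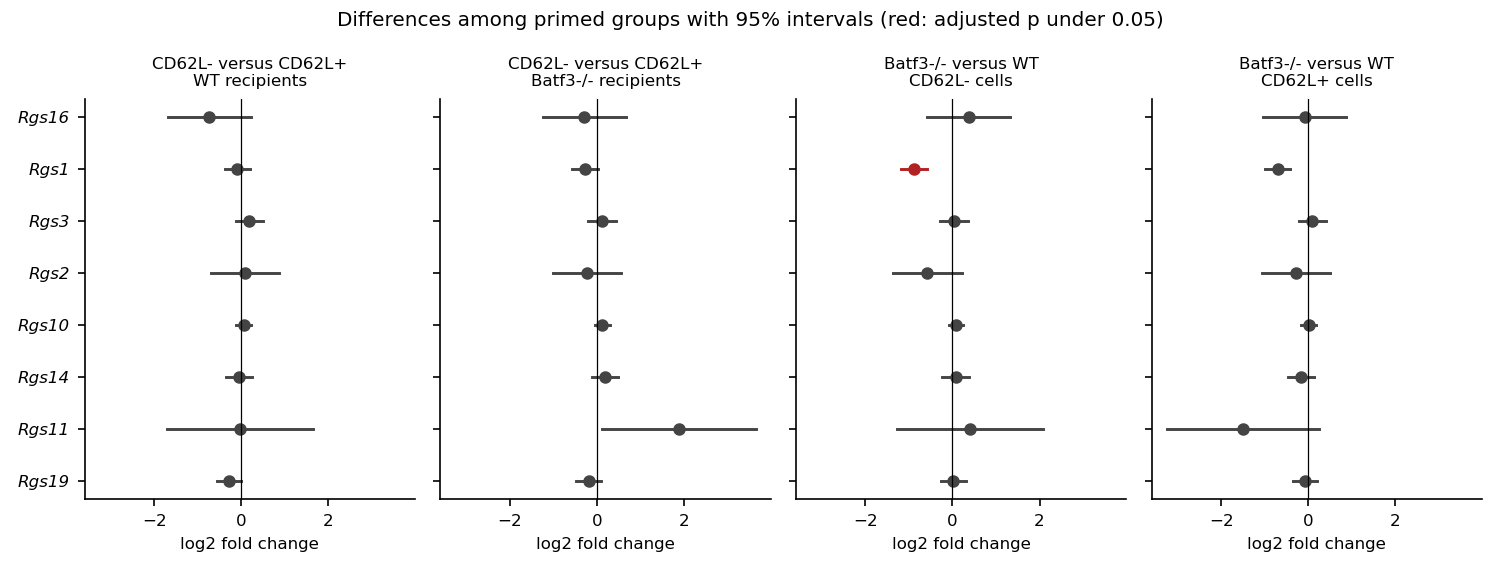
Log2 fold change (x axis) of 8 members (rows) for subset in each recipient and for recipient in each subset, with 95% intervals from the edgeR fit and red where the adjusted p was under 0.05. The single red point is Rgs1 in CD62L- cells at -0.88, beside -0.70 in CD62L+ cells.

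The genes whose pattern over the 15 libraries was most like that of a member were found by the smallest root mean square difference in centred log2 CPM. For Rgs1 these were Id2, an inhibitor of helix-loop-helix factors (0.300), and Asap1, a GTPase-activating protein for Arf (0.343), where Rgs1 itself varied by 1.11. Mean Id2 levels were 31.1 CPM in naive cells, 147 (CD62L-) and 209 CPM (CD62L+) in WT recipients, and 134 (CD62L-) and 155 CPM (CD62L+) in Batf3-/- recipients. Rgs10 was nearest to Lrmp (0.131) and Gabarapl1, an autophagy gene (0.133), and Rgs3 to the glycolytic gene Tpi1 (0.169) and the mitochondrial ribosomal gene Mrps6 (0.207). Rgs2 was nearest to Spty2d1 (0.167) and Nrip1, a nuclear receptor corepressor (0.222), which also ran with the replicate number in the primed groups. Rgs16 was nearest to the inhibitory receptor gene Lag3 (0.598) and Mpp2 (0.606); it varied by 3.84 itself. Rgs11 was nearest to Atp1b1 (1.21) and the globin gene Hba-a2 (1.33), and Rgs18 to the class II genes H2-Ab1 (1.47) and H2-Eb1 (1.49), where these members themselves varied by 2.26 and 2.15, so neither has a close match.

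The pathway around the RGS proteins was described with lists chosen for their roles, and the shares of all genes called in each direction given above are the background of these counts. The median log2 difference over all genes was -0.08, -0.01, 0.00 and 0.00 in the order below. Of 30 receptor genes tested, 12, 12, 12 and 11 were higher and 7, 6, 7 and 7 lower than in naive cells, in the order WT CD62L-, WT CD62L+, Batf3-/- CD62L- and Batf3-/- CD62L+. Their medians were 1.07, 1.04, 1.0 and 0.54. Cxcr5, the receptor that takes T cells to follicles, rose from 3.86 CPM to 308, 123, 252 and 114 CPM, and Ptger2, a prostaglandin E2 receptor, had log2 changes of 4.94 in WT CD62L- and 4.51 in WT CD62L+ cells. S1pr1, the lymph node exit receptor, fell from 645 CPM to 192, 328, 170 and 230 CPM. Of 10 G alpha genes, 5, 4, 4 and 4 were higher and 2, 1, 2 and 2 lower. Their medians were 0.68, 0.54, 0.54 and 0.58. Gna14, of the G alpha q class, had 0 counts in naive cells and 16.5 to 20.7 CPM in primed groups, and Gna15 rose from 0.412 CPM to 5.69 to 7.67 CPM. Gna13 rose from 84.5 CPM to 193, 142, 159 and 130 CPM. Gnal fell from 61.7 CPM to 37.7 to 48.3 CPM.

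Of 13 beta and gamma genes, 5, 6, 6 and 4 were higher and 2, 1, 2 and 2 lower, led by Gng2, which rose from 18.1 CPM to 140, 89.1, 109 and 76.3 CPM. Gng10 rose from 35.0 CPM to 84.9 to 95.4 CPM. Gngt2 fell from 23.8 CPM to 9.84 to 10.6 CPM. Of 17 effector genes, 3, 2, 2 and 2 were higher and 6, 6, 7 and 7 lower. The medians of the beta and gamma genes were 0.54, 0.55, 0.89 and 0.68, and those of the effectors -0.04, -0.43, -0.20 and -0.64. Pik3r5, a regulatory subunit of the phosphoinositide 3-kinase that G beta gamma activates, fell from 140 CPM to 15.7, 28.1, 17.4 and 17.9 CPM, while its catalytic subunit Pik3cg rose from 39.5 CPM to 66.2, 59.5, 55.0 and 59.0 CPM. Pde3b, which degrades cyclic AMP, fell from 172 CPM to 49.9, 19.9, 40.2 and 22.3 CPM. Of 8 other G alpha regulators 1 was higher in each group, Arhgef12, and 2, 0, 1 and 3 were lower. Of 6 receptor kinase and arrestin genes, the other means of ending a receptor signal, edgeR called 0 in every comparison with naive cells, with 1, 0, 0 and 0 at an unadjusted p under 0.05 and the same counts by DESeq2. Of all genes, 40.5%, 37.4%, 39.4% and 40.3% had an unadjusted p under 0.05. Their medians were -0.12, 0.00, -0.09 and -0.18.

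Between subsets of WT recipients, 6 genes of these lists, of the sizes given above, were called. EdgeR called 1.22% of all genes there, 134 higher and 110 lower in CD62L- cells. Cxcr5 (log2 1.32, adjusted p = 6.09e-06, edgeR), Gng2 (0.65), Pde3b (1.33) and Pde2a (0.87) were higher in CD62L- cells, and S1pr1 (-0.78) and Ptger4 (-0.71) were lower. In Batf3-/- recipients Cxcr5, Pde2a and Pde3b were called, at log2 values of 1.14, 1.06 and 0.85. There edgeR called 0.501% of all genes, 57 higher and 43 lower in CD62L- cells. None of the lists had a gene called by edgeR in the recipient comparisons or in the interaction. Of all genes it called 0.0501% (CD62L-), 0.00501% (CD62L+), 0.441% (average) and 0% (interaction). Among RGS genes edgeR called only Rgs1 between recipients. DESeq2 called 1 receptor, 1 G alpha and 1 other RGS gene in CD62L- cells (431 of all genes). In the average it called as many and 1 effector (620 of all genes). In CD62L+ cells it called 0 (142), and in the interaction 1 other RGS gene (36). At an unadjusted p under 0.05 (edgeR) the average held 12 of 30 receptor genes and 2358 of all 19942. No other list had more than 3.

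The nearest tested genes on each side gave a further description of the loci. Gm11209, inside Rgs3 on the other strand, had no counts in naive cells and averaged 0.393 to 0.728 CPM in primed groups, and was called higher in all 4. Lman2, next to Rgs14, rose by 0.41 to 0.51 on the log2 scale in all 4 primed groups while Rgs14 fell. Tcea2, which lies 348 bases from Rgs19 on the other strand, had log2 differences of 0.02 to 0.07 with adjusted p-values of 0.873 to 0.974. Pcmtd2, on the other side of Rgs19, was called lower in WT CD62L+ (-0.47) and Batf3-/- CD62L+ cells (-0.69), and in neither CD62L- group. Fam234a, 498 bases beyond Rgs11, rose in WT CD62L- (0.60) and Batf3-/- CD62L- cells (0.99). It was not called in either CD62L+ group, while Rgs11 fell in all 4 primed groups.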

How the data were processed

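The 9 members, the gene lists and the comparisons were chosen with earlier results of these data known. The tools named per the submitters' processing notes were STAR 2.7.3a, Trimmomatic 0.36, FastQC and Subread 1.6.5 (featureCounts), with the build mm10; which annotation release was counted is not stated in the labels. The authors deposited raw counts per gene for 49492 genes, with exon positions and summed exon lengths. Between 60.6% and 68.5% of counts from 1 to 50 were even numbers in each library, so both mates of 1 pair may each add a count. Strand is not stated to have been used, so overlapping and antisense genes cannot be separated.

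Genes were kept with edgeR 4.0.16 filterByExpr (minimum count 10), which left 19942, including all 9 members. Libraries were scaled by TMM. CPM are counts per 1000000 of the scaled library size, and CPM per kb divides by the summed exon length. A quasi-likelihood model (robust) had 1 term per group over all 15 libraries. P-values were Benjamini-Hochberg adjusted over all genes tested, at 0.05. Standard errors are the absolute log2 fold change over the root of F, and 95% intervals use the t quantile of the same test. Floors of 3 counts per group cover counting error only. The fit was also run on simulated data in which only WT CD62L- cells had changed genes, and few of them. That setting differs from the comparisons with naive cells, so nothing is concluded from it about these.

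The fit was repeated with DESeq2 1.42.0, with edgeR's RLE scaling, without the filter, with a stricter filter (a mean count of 20 and 3 libraries at 1 CPM), on the compared groups only, with a replicate block, without replicate 3 of both CD62L- groups, and without each library in turn. The genes named are the 9 members, the other RGS genes, in each list called genes with the smallest adjusted p, the genes of most similar pattern, and the neighbours. Patterns were compared over 9143 genes with a mean of at least 5 CPM, by the root mean square difference of centred log2 CPM (prior count 2).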

Additional observations from a re-analysis of the deposited data

How the results depend on the processing

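Each comparison was recomputed under 8 kinds of alternative. Of the per-gene results of the 9 members, 1238 kept their side of the threshold, 18 called ones missed it and 8 passed it newly, and 0 reversed. Rgs1, Rgs3, Rgs10, Rgs11, Rgs14 and Rgs16 kept their calls against naive cells in all alternatives run. In Batf3-/- against WT CD62L- cells, the members called went from 1 to 0 with only the compared groups fitted and without replicate 3 of both CD62L- groups. In CD62L+ cells they went from 0 to 1 with DESeq2. Leaving out each library in turn gave 7 to 8 members for WT CD62L-, 6 to 7 for WT CD62L+, 7 to 7 for Batf3-/- CD62L- and 6 to 7 for Batf3-/- CD62L+ against naive cells, 0 to 1 for the recipients in CD62L- cells, 1 to 1 for their average, and 0 to 0 for the other comparisons. The same fits called 4726 to 5402, 4090 to 4781, 4574 to 5212 and 4643 to 5125 of all genes against naive cells. In the same order, 6004, 5430, 5843 and 6020 were called with all libraries kept. The cause of these moves was not tested.

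Libraries with the same replicate number in the titles correlated with r from 0.016 to 0.111 in their deviations from group means (4 of 30 pairs over 0.1), others from -0.106 to 0.03, and 15 of 15 libraries correlated best with their own number. This is a hint from the data, not the design, so the replicate block is an alternative only. With the block, 34.6%, 31.8%, 33.9% and 34.8% of all genes were called against naive cells, and 8, 7, 8 and 8 members, adding Rgs2 in both Batf3-/- groups (adjusted p = 0.0278 and 0.00394) and Rgs19 in CD62L+ cells (0.0316), and 0, 0, 1, 0, 1 and 0 in the other comparisons.

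Genes called over the whole table moved more. Under the compared groups only, the block and DESeq2 they went from 244 to 121, 529 and 824 for WT subsets, from 100 to 26, 197 and 432 for Batf3-/- subsets, from 10 to 0, 74 and 431 for recipients in CD62L- cells, and from 1 to 0, 32 and 142 in CD62L+ cells. The block and DESeq2 gave 201 and 620 in place of 88 for the recipient average, and 1 and 36 in place of 0 for the interaction. Without replicate 3 of both CD62L- groups there were 55 for Batf3-/- subsets, 38 for the average, 2 for recipients in CD62L+ cells and 2 for the interaction; with no filter 5 and 1 for the last 2, and with the stricter filter 5 in CD62L+ cells. Leaving out each library in turn gave 121 to 265, 32 to 51, 4 to 31, 0 to 1, 36 to 132 and 0 to 2 genes for WT subsets, Batf3-/- subsets, recipients in CD62L- and in CD62L+ cells, their average and the interaction. Rgs18 in all groups and Rgs11 in primed cells had few counts, which limits their precision.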
